A study of Mus musculus with 10 samples.

Results

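Ifit1, Ifit2, Ifit3, Ifit3b, Mx1, Mx2, Rsad2, Cmpk2, Ifi44 and Xaf1 are antiviral and regulatory genes that cells switch on when they sense interferon. They were chosen by name, with earlier results of these data known, so the choice was not blind to the values. All 10 were found among the 22329 genes of the deposited expression table. The question was whether their type I interferon signature was present in B16F10 tumours 7 days after a single injection of cytokine-encoding mRNA. B16F10 is a mouse melanoma cell line, here grown under the skin of C57BL6/J mice, and all tumours received 80 µg of mRNA inside the tumour. In the 5 control tumours (libraries 1 to 5) the mRNA encoded luciferase. The other 5 (libraries 6 to 10) received 4 cytokine mRNAs at 20 µg apiece: IFNalpha, GM-CSF, IL-15sushi and a single chain IL-12, all of mouse sequence. The sources used here give neither age nor sex of the mice. The control tumours were also injected with mRNA, so the comparison is between mRNA injections and not with uninjected tumours.

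Type I interferons (the alpha and beta interferons) bind the receptor IFNAR1/IFNAR2. The kinases JAK1 and TYK2 then activate a complex that includes STAT2 and IRF9 and binds the interferon-stimulated response element (ISRE) in the promoters of target genes. Interferon gamma has its own receptor and acts through gamma-activated sites (GAS), and it also induces many of the same targets, partly through IRF1. In tumours, interferon-stimulated genes can be expressed by the tumour cells themselves and by infiltrating leukocytes. The data are from bulk tissue, so a change in the number of cells of a type and a change in RNA per cell cannot be told apart.

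Of the 10 genes, 9 rose in the cytokine mRNA tumours and none fell at an adjusted p under 0.05 (limma on log2(TPM + 1), Benjamini-Hochberg over all genes tested). TPM is a gene's length-corrected share of a library's transcripts, scaled to a fixed total. The background was 7.41% of 12497 tested genes called higher and 3.02% called lower. The exception was Cmpk2, with an adjusted p of 0.0610 from limma. In 8 of the 10 genes every cytokine mRNA tumour lay above every control tumour, a pattern seen in 5.45% of tested genes (3.78% had the opposite pattern), and the groups overlapped in Mx2 and Cmpk2. The median log2 change of the 10 genes was 2.06, against -0.18 for all genes tested, and mean TPM was 2.46 to 14.0 times as high in cytokine mRNA tumours.

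**Figure D1:**
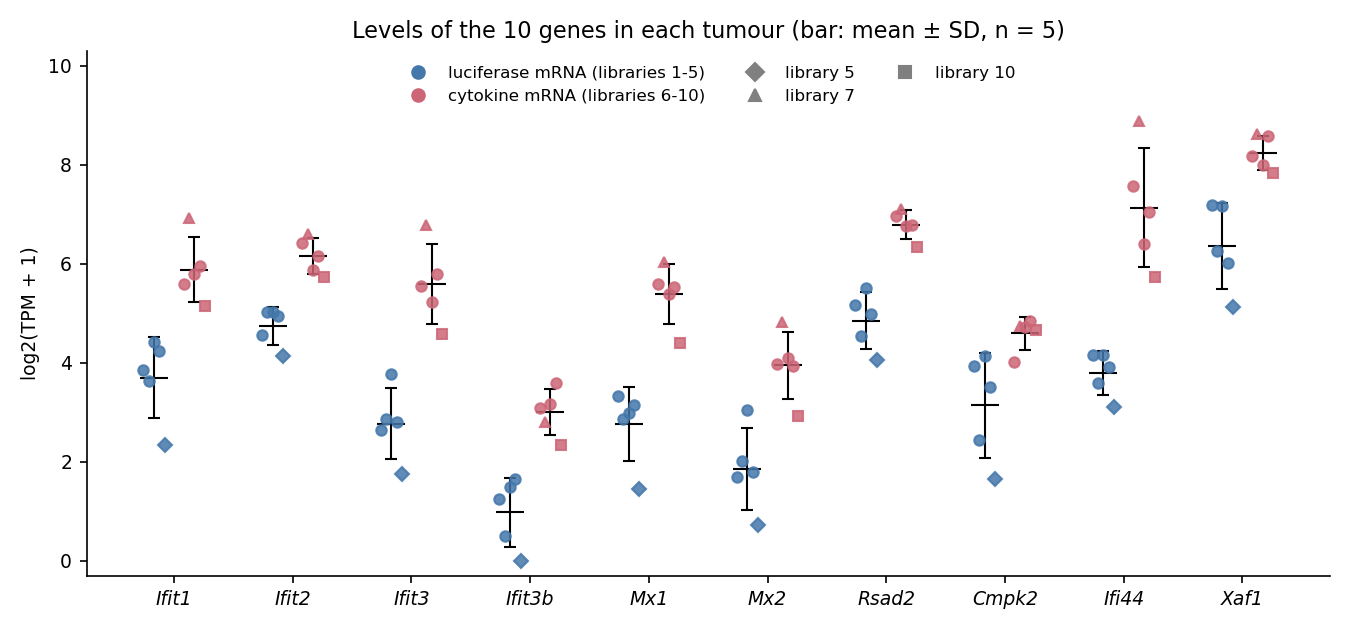
Level of each gene in each tumour, as log2(TPM + 1), with control tumours in blue and cytokine mRNA tumours in red. Black bars give the mean and SD of 5 tumours. Library 5 was the lowest control tumour for all 10 genes and library 10 the lowest cytokine mRNA tumour for 9 of them.

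Several libraries stood apart. Chemosensory receptor genes, the receptors of smell and pheromone sensing, were listed above 0 for 276 genes in library 7. The count was 20 to 40 in the rest of its group and 11 to 22 in the controls. Library 7 also had the lowest summed TPM of 8 melanoma markers, 41.9, against 4117 or more in the other cytokine mRNA tumours. The pigment genes that define the tumour line were thus nearly absent from that library. Library 10 resembled the control tumours across all tested genes, with a mean r of 0.930 with them and 0.811 with its own group (across genes, which are not independent replicates). Mitochondrial genes took 16.2% to 27.9% of TPM in control and 4.44% to 19.2% in cytokine mRNA tumours. All genes called numbered 926 higher and 378 lower. Of these calls 71.0% were higher. That share became 60.04% when TPM was rescaled with the 50 most abundant genes removed, and 47.8% with mitochondrial genes removed. Of tested genes 6.87% and 6.61% were then called higher. Across all tested genes the median then stood at -0.28 and -0.37, and 9 of the 10 genes were called higher either way. The count of the 10 genes called was 9 without library 7 (background 5.23%), 9 without library 10 (background 13.2%) and 8 without library 6 (background 2.57%). Without libraries 6 and 7 together it was 1, Ifi44, when 0.152% of all tested genes were called higher. All 10 changes were then still positive, from 1.19 in Ifit2 to 2.60 in Ifi44. Without libraries 7 and 10, a fit of the same size, 9 of the 10 were called (background 11.5%).

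The Ifit genes lie next to each other on chromosome 19 and encode proteins that bind foreign RNA, such as RNA without the cap modification of host mRNA. Promoter stretches of Ifit1, Ifit3 and Ifit3b are shown because they hold the same ISRE letters close to the start site. Ifit2, without such a match, is not shown. Each line gives 60 bases upstream of the start site on the gene's strand, from RefSeq (build GRCm38.p6), and capitals mark matches, on either strand, to the ISRE core searched: GAAA, any 2 bases, GAAA. Rsad2, on chromosome 12, is shown with them as the other gene with a match.
Ifit1, chr19:34640770-34640829, plus strand: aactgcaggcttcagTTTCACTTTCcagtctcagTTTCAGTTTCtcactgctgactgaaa
Ifit3, chr19:34583365-34583424, plus strand: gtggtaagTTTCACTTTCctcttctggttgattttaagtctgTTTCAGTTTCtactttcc
Ifit3b, chr19:34607761-34607820, plus strand: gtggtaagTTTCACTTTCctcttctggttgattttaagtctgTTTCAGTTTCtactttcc
Rsad2, chr12:26456538-26456597, minus strand: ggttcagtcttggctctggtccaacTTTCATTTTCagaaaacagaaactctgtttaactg
All matches are to the motif's reverse complement, TTTC, any 2 bases, TTTC. The windows of Ifit3 and Ifit3b are the same sequence.

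RefSeq promoters, 250 bases before to 50 after a start, were found for 8 of the 10 genes, all but Mx1 and Mx2. The ISRE core occurred in 4 of these 8 genes, against 3.99% of 27025 genes with a promoter in the table. The matches began 188 to 85 bases before the start. Among the other type I response genes described below, 16 of 34 with a promoter held it (47.1%), and among the interferon gamma genes 8 of 15 (53.3%). A longer core, with CT after the second GAAA, was present in 3 of the 8, Ifit1, Ifit3 and Ifit3b, against 0.303% of all genes. The GAS core TTCNNNGAA, which reads the same on both strands, was found in 1 of the 8, Ifit2, and in 9.55% of all genes. A match describes the letters in the window only. Ifi44, with the largest change, had none of these letters there.

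**Figure D2:**
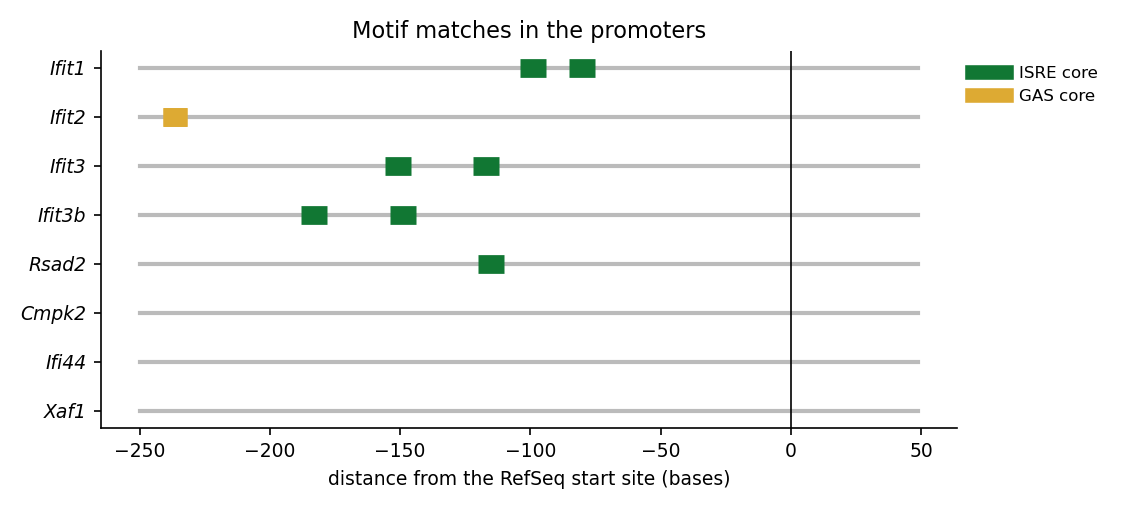
Matches to the ISRE core (green) and the GAS core (yellow) along the promoters of 8 genes, by distance from the RefSeq start site in bases. Ifit2 has a second RefSeq start without a match, which is not drawn. Ifit1, Ifit3 and Ifit3b each hold 2 ISRE core matches and Rsad2 holds 1.

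Ifit1, which binds RNA with an unmodified 5′ end, was at 13.4, 11.4, 20.4, 17.8 and 4.08 TPM in control libraries 1 to 5. In cytokine mRNA libraries 6 to 10 it was at 47.2, 121, 54.1, 61.2 and 34.5 TPM. Library 7 was the highest and library 10 the lowest of its group, and the lowest cytokine mRNA value lay above the highest control value. Its log2 change was 2.19 ± 0.42 (SE; limma adjusted p = 0.0149). The cytokine mRNA mean of 63.5 TPM was 49.3 TPM without library 7.

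Ifit2, whose protein binds RNA together with the other IFIT proteins, had a smaller and more even change. Its control values were 22.7, 31.4, 31.6, 29.6 and 16.5 TPM, and its cytokine mRNA values were 84.2, 95.3, 57.5, 70.4 and 52.5 TPM. The groups did not overlap, and the coefficient of variation among controls, 24.96%, was close to that after cytokine mRNA, 24.9%. It changed by 1.42 ± 0.25 on the log2 scale (SE; limma adjusted p = 0.0121), the smallest of the 10.

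Ifit3, another gene of the cluster, had the second largest change. It was at 5.28, 6.30, 12.6, 6.00 and 2.39 TPM in control tumours. In cytokine mRNA tumours it was at 46.1, 109.5, 36.5, 54.5 and 22.8 TPM, again highest in library 7, without overlap. The log2 change was 2.82 ± 0.44 (SE; limma adjusted p = 0.00994), and the cytokine mRNA mean of 53.9 TPM was 40.0 TPM without library 7.

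Ifit3b is a near copy of Ifit3 and was the least abundant of the 10 genes in every tumour. Its values were 1.38, 0.424, 1.81, 2.14 and 0 TPM in control and 7.502, 6.01, 8.01, 11.1 and 4.07 TPM in cytokine mRNA tumours. The groups did not overlap, and here library 9 rather than library 7 was highest. The change, 2.02 ± 0.38 on the log2 scale (SE; limma adjusted p = 0.0145), is understated by the pseudocount at these low values. The annotated transcripts of Ifit3 and Ifit3b (GENCODE M21) are 98.0% identical over 1697 aligned bases. Of the 50-base words of Ifit3, 51.2% also occur in Ifit3b, and the word length is a choice, since the read length is not given in the sources used here. How the counting divided reads between the 2 genes is not stated, so the level of each is uncertain. Other members shared far fewer such words: 7.06% of those of Ifit1 with its relative Ifit1bl2, and 3.86% of those of Mx1 with Mx2.

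Mx1 and Mx2, on chromosome 16, encode dynamin-like GTPases that block viruses. Inbred strains such as C57BL/6 carry a deletion in Mx1 that abolishes the protein's function, and GENCODE M21 lists mouse Mx2 as a polymorphic pseudogene, so here their RNA serves as a readout of induction. Mx1 was at 9.11, 6.27, 6.90, 7.86 and 1.74 TPM in control and 47.1, 64.6, 41.0, 45.1 and 20.2 TPM in cytokine mRNA tumours. There was no overlap, and the log2 change was 2.63 ± 0.40 (SE; limma adjusted p = 0.00961).

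Mx2 was less abundant than Mx1 in 9 of 10 tumours. Its control values were 2.24, 3.04, 7.31, 2.46 and 0.646 TPM, and its cytokine mRNA values were 14.6, 27.3, 16.1, 14.3 and 6.55 TPM. Library 10, at 6.55 TPM, lay below control library 3, so the groups overlapped. It was called higher, by 2.09 ± 0.45 on the log2 scale (SE; limma adjusted p = 0.0186). The call was lost without library 6 (adjusted p = 0.0535) and held with any other single library left out.

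Rsad2 and Cmpk2 sit side by side on chromosome 12 and are read in opposite directions. Rsad2 encodes viperin, an enzyme that makes a chain-terminating nucleotide, and Cmpk2 a mitochondrial nucleotide kinase that helps supply its substrate. Rsad2 was at 35.0, 22.2, 44.5, 30.8 and 15.5 TPM in control and 124, 137, 108, 109 and 79.6 TPM in cytokine mRNA tumours. It had the lowest adjusted p of the 10 genes (limma, 0.00943), with a log2 change of 1.94 ± 0.28 (SE), and its cytokine mRNA values varied the least, with a coefficient of variation of 19.4%. 

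Cmpk2 did not pass. It was at 14.3, 4.42, 16.6, 10.4 and 2.16 TPM in control and 15.1, 25.6, 25.4, 27.6 and 24.2 TPM in cytokine mRNA tumours. The control values were spread widely, and library 6 lay below control library 3 while the other 4 cytokine mRNA tumours were close together and above all controls. The log2 change was 1.46 with a 95% interval of 0.47 to 2.44. Leaving out any single library did not make it pass (10 fits, limma adjusted p of 0.0536 to 0.133). It was called with a pseudocount of 5 (0.0458), after median-ratio scaling (0.0336), after quantile normalization (0.0256) and with library quality weights (0.0232).

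Ifi44, a cytoplasmic protein with antiviral activity whose mechanism is less well understood, had the largest change. It was at 16.9, 11.05, 16.8, 14.1 and 7.62 TPM in control tumours, a narrow range. In cytokine mRNA tumours it was at 190.1, 474, 83.3, 130.3 and 52.2 TPM, the widest spread of the 10 genes, with a coefficient of variation of 90.9%. Every cytokine mRNA tumour lay above every control. The log2 change was 3.34 ± 0.50 (SE; limma adjusted p = 0.00961), and 2.90 without library 7, where the cytokine mRNA mean was 114 TPM in place of 186 TPM.

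Xaf1, a tumour suppressor that opposes the caspase inhibitor XIAP and favours cell death, was the most abundant of the genes in 9 of 10 tumours. Its control values were 145, 75.5, 143, 63.5 and 33.9 TPM, and its cytokine mRNA values were 287, 391, 253, 379 and 226 TPM. The groups did not overlap, although libraries 1 and 3 were well above the other controls. Its log2 change was 1.88 ± 0.38 (SE; limma adjusted p = 0.0160).

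**Figure D3:**
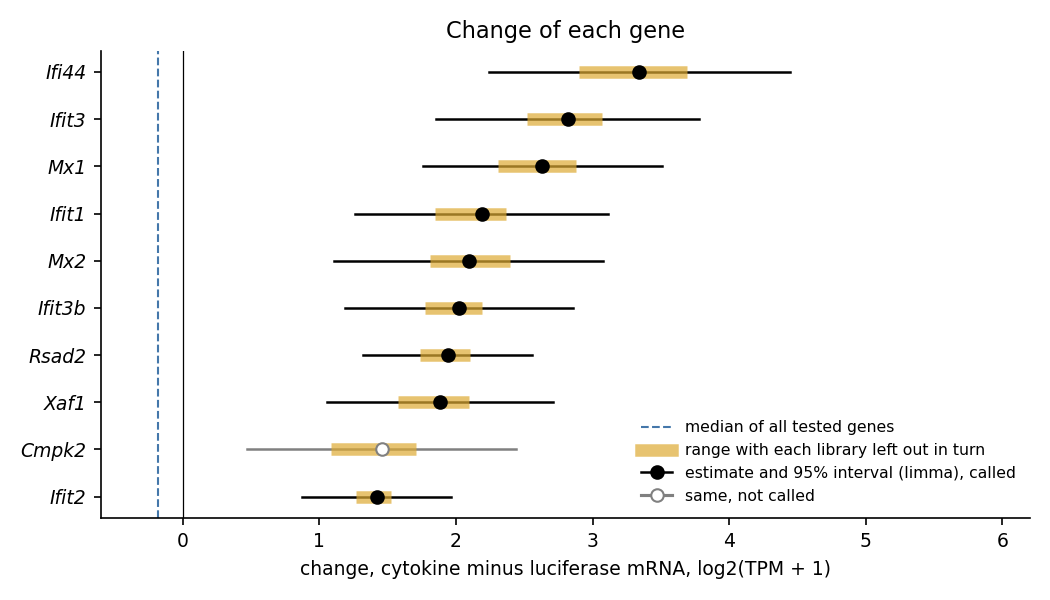
Change of each gene between groups on the log2(TPM + 1) scale, with the limma estimate, its 95% interval (line) and the range of estimates when each library is left out in turn (yellow bar). The dashed line marks the median of all tested genes, -0.18. Every yellow bar lies above 0, from 1.09 in Cmpk2 to 3.69 in Ifi44.

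In the order of mean levels Ifi44 moved from place 5 in control to place 2 in cytokine mRNA tumours, and Cmpk2 from place 6 to place 8. In control tumours Xaf1 was highest, at 92.3 ± 49.8 TPM (SD, n = 5), followed by Rsad2 at 29.6 ± 11.2 and Ifit2 at 26.3 ± 6.58 TPM, a pair that differed by less than the SD. Ifit1 and Ifi44 came next, at 13.4 and 13.3 TPM, then Cmpk2, Ifit3 and Mx1, and Mx2 and Ifit3b were lowest. Neighbours in this order differed by more than the larger SD for Xaf1 above Rsad2, Ifit2 above Ifit1 and Mx1 above Mx2, and by less elsewhere. Ifi44 held place 4 or 5 in every control tumour. In cytokine mRNA tumours its mean, 186 ± 169 TPM, was second to Xaf1 at 307 ± 74.4 TPM, and it held place 1 in library 7 and place 4 in library 10. The means of Xaf1 and Ifi44 differed by less than the SD of Ifi44. Further down, Rsad2 lay above Ifit2, Mx1 above Cmpk2, Cmpk2 above Mx2 and Mx2 above Ifit3b by more than the larger SD.

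Whether the genes changed by unlike amounts was tested for all 45 pairs, as the difference of log2(TPM + 1) within each tumour. No pair passed after adjustment (exact 2-sided permutation test, smallest adjusted p = 0.0595), and 19 had an unadjusted p under 0.05. The smallest p this test can give passes adjustment over 45 pairs only if several pairs reach it together. A single pair could not pass however unlike its change, so the result does not show that the changes were alike. For Ifit2 against Ifi44 the within-tumour difference was 0.95 ± 0.37 in the controls and -0.97 ± 0.86 after cytokine mRNA (SD; exact permutation p = 0.00794, the smallest possible with 5 against 5). For Ifit1 against Ifit3 it was 0.92 ± 0.37 and 0.29 ± 0.25 (exact permutation p = 0.00794). With a pseudocount of 5, which shrinks the changes of low genes more than those of abundant ones, 22 pairs passed. The log2 change of Ifit3b was 2.02 with a pseudocount of 1 and 0.99 with 5, and that of Xaf1 1.88 and 1.82. The part of this shrinkage in the 22 pairs was not tested. With a pseudocount of 0.1, 0 pairs passed, and 8 passed without library 10 (pseudocount of 1).

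The genes also moved together from tumour to tumour. Library 5 had the lowest control value of all 10 genes, and the next lowest control was 1.37 to 3.60 times as high in the 9 genes above 0 there. Among cytokine mRNA tumours library 7 was highest in 8 genes and library 10 lowest in 9. Markers of leukocytes followed the same order at these ends. The summed TPM of 8 leukocyte markers was 719 in library 5 against 865 to 966 in the other controls. It was 1363 in library 10, 6623 in library 7, and 2833 to 3053 in the rest. Arhgdib, which was not called, made up much of the control sums, at 624 TPM in library 5 and 446 to 719 TPM in the other controls. As a mean of log2(TPM + 1), the 8 markers were at 4.23 in library 5 and 5.48 to 5.78 in the other controls. For 10 macrophage and monocyte markers the sum was 128 in library 5, 335 to 410.4 in the other controls, 584 in library 10, 2483 to 3744 in libraries 6, 8 and 9, and 7037 in library 7. In library 10, 9 of the 10 interferon-stimulated genes exceeded every control value, against 16% of tested genes, and its leukocyte, macrophage and T cell marker sums exceeded every control sum too. The part of leukocyte numbers in the change of the 10 genes was not tested.

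Marker lists of the other cell types gave mixed values. Of 8 leukocyte markers 7 rose, of 10 macrophage and monocyte markers 9 and of 9 tested T cell markers (11 listed) 8. The NK cell list held 6 markers, of which 3 were tested and 3 rose. The neutrophil list held 8, of which 3 were tested and 2 rose. Of 5 tested conventional dendritic cell markers (7 listed) 2 rose. Of all tested genes 7.41% were called higher. The NK cell markers Klra8 and Klre1 were below 1 TPM in every control. They passed the filter only through the cytokine mRNA tumours, so the filter itself favoured a rise in them. The summed T cell markers ran from 3.83 to 50.6 TPM in control and from 67.3 to 3771 TPM in cytokine mRNA tumours. Plasmacytoid dendritic cells are known for making large amounts of type I interferon. Of their 3 tested markers 1 rose, Siglech, at 0.377 ± 0.843 and 4.51 ± 3.18 TPM, and the summed level, mostly the widely expressed Tcf4, overlapped (124 to 485 and 129 to 235 TPM). Leaving out each library in turn, Siglech passed in 3 of 10 fits. No tested marker of B cells (1), endothelium (6), fibroblasts (6), skeletal muscle (4), fat cells (3) or melanoma (8) was called (limma), and 1 of these, a fat cell marker, had an unadjusted p under 0.05. All 8 melanoma markers had negative estimates, from -2.14 to -1.38 with a median of -1.86, opposite in sign to the 10 genes, and their part in the result was not tested. Summed melanoma markers ran from 2604 to 16413.5 TPM in control and from 41.9 to 16830.5 TPM in cytokine mRNA tumours. No marker of any list was listed at 0 in all libraries, and the 4 keratinocyte markers, all below the filter, summed to at most 8.30 TPM.

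**Figure D4:**
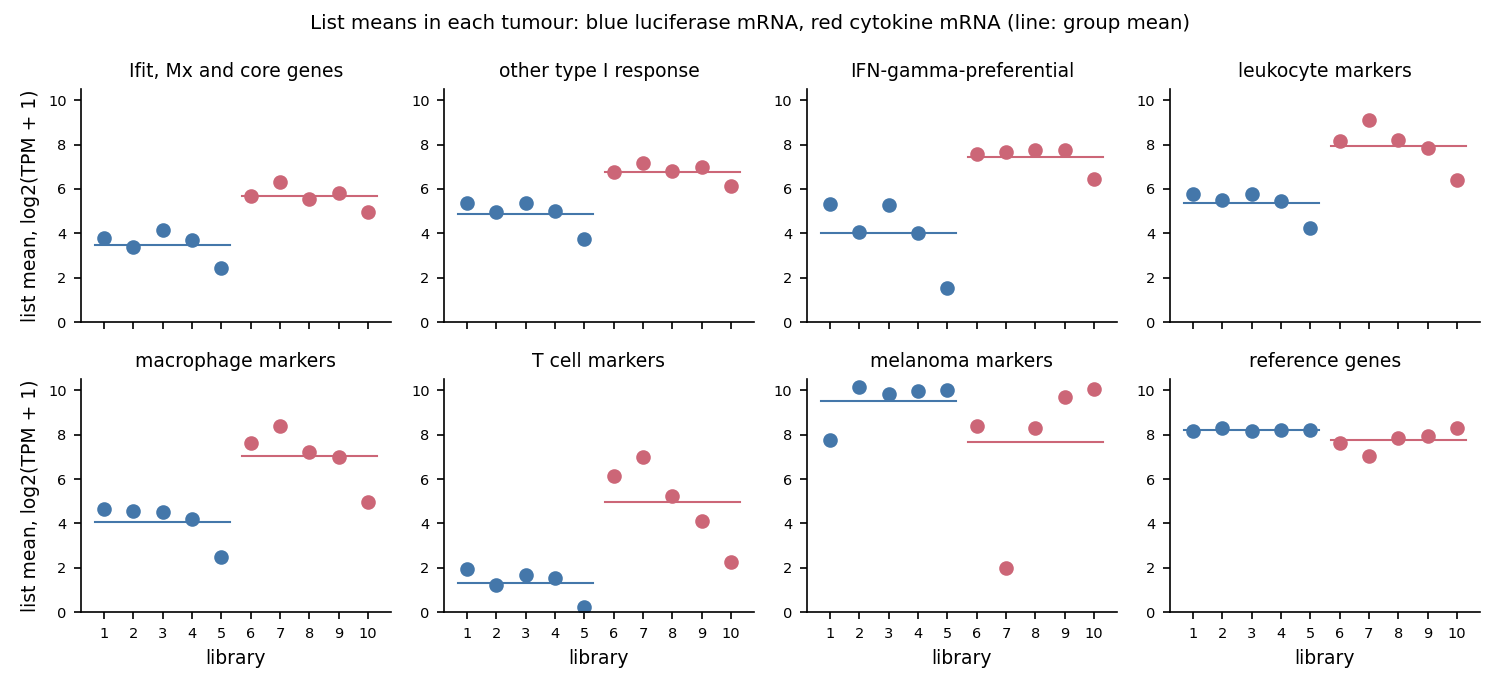
Mean log2(TPM + 1) of 8 gene lists in each tumour, control in blue and cytokine mRNA in red, with lines at group means. The 10 genes (upper left) separate the groups with no overlap, from 2.43 to 4.17 in control and 4.97 to 6.33 in cytokine mRNA tumours, while melanoma markers fall to 2.01 in library 7 and reference genes to 7.05.

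Upstream of these genes, transcripts of the type I interferons themselves were hardly seen. Of 18 ligand genes 14 were listed at 0 in all 10 libraries, and the rest (Ifnb1, Ifna2, Ifna4 and Ifne) were at 0 in all control tumours and in libraries 6 and 10. Their summed TPM was 4.24 in library 7, 0.948 in library 8 and 0.973 in library 9, and none could be tested. The value of library 7 came from Ifna2 and Ifna4, which were at 0 in every other library. The injected mixture itself held an IFNalpha mRNA of mouse sequence. Reads given to Ifna genes can therefore not be divided between the tumour's own genes and the injected mRNA. Library 7 was also the one with 276 chemosensory receptor genes above 0. Whether its low Ifna values share a source with those was not tested. The depth is unknown, so no detection limit can be given. Ifng, the interferon gamma gene of T and NK cells, was at 2.58, 2.79, 2.56, 0 and 0 TPM in control and 57.6, 114, 36.6, 23.7 and 8.81 TPM in cytokine mRNA tumours, without overlap. Its log2 change was 4.06 ± 0.66 (SE; limma adjusted p = 0.0107), and its cytokine mRNA mean of 48.2 TPM was 31.7 TPM without library 7. The type III ligands Ifnl2 and Ifnl3 were listed at 0 throughout.

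The receptor genes did not share a direction. Ifnar1, the receptor chain for type I interferon that binds TYK2, was at 36.2 ± 5.28 and 36.5 ± 14.5 TPM (SD, n = 5; limma adjusted p = 0.907). Ifnar2, its partner, rose from 84.4 ± 20.2 to 261 ± 161 TPM (limma adjusted p = 0.0454). Of 5 receptor genes tested 2 rose, Ifnar2 and the interferon gamma receptor chain Ifngr1, and none fell. Of 10 fits leaving out 1 library each, Ifnar2 passed in 1 and Ifngr1 in 2.

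Of 9 tested genes of interferon signalling 4 rose, each without overlap and whichever single library was left out. Stat2, part of the complex that binds the ISRE, rose from 38.5 ± 16.8 to 206 ± 71.3 TPM (SD, n = 5). Irf7, the factor that amplifies interferon production, rose by 2.26 ± 0.39 (SE) on the log2 scale, and Irf1, a factor that interferon gamma induces, by 2.32 ± 0.47. Irf9, the DNA-binding part of the ISRE complex, was at 25.5 ± 10.6 and 35.2 ± 8.47 TPM (limma adjusted p = 0.274). The kinases Jak1, Jak2 and Tyk2 and the sensor-driven factor Irf3 were not called either. Irf8 is not analysed here.

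Among 6 negative regulators 2 rose and none fell. Usp18, which removes ISG15 and blocks signalling at IFNAR2, rose from 11.8 ± 5.17 to 72.0 ± 40.9 TPM (SD, n = 5; limma adjusted p = 0.0107). Its control value in library 5, 14.9 TPM, was within the range of the group, unlike those of the 10 genes. Socs1, an inhibitor of JAK kinases, rose by 2.06 ± 0.54 (SE), and passed in 3 of 10 fits when libraries were left out singly. Socs3, Ptpn2, Ptpn6 and Pias1 were not called.

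Among other genes of the type I response 35 of 44 were called higher and 0 lower, against 7.41% and 3.02% of all tested genes. Their median log2 change was 1.75. The largest called changes were in Ifi204, a DNA sensor family gene, with 3.45 ± 0.47 (SE), and in Oas3, an antiviral synthetase, with 3.33 ± 0.48. Oasl2 had a change of 3.19 ± 0.51 and Slfn8, a Schlafen family gene, of 3.19 ± 0.55. Each was called with any 1 library left out. Ifi27l2a had a larger estimate, 3.78 ± 1.43, and was not called (limma adjusted p = 0.104). The smallest changes among the 9 not called were 0.07 in Pml, 0.40 in Eif2ak2 (the kinase PKR), -0.46 in Pnpt1 and 0.80 in Ifi35. For Pml the values were 141 ± 14.6 and 167 ± 82.5 TPM. The 10 genes thus had a median of 2.06, and the wider list 1.75, and the difference between the lists was not tested.

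Among genes that answer mainly to interferon gamma 20 of 22 were called higher and 0 lower, against 7.41% and 3.02% of all tested genes. Their median log2 change was 3.29. Markers of leukocytes and macrophages rose in the same tumours, and the part of leukocyte numbers in these changes was not tested. H2-Ab1, an MHC class II chain, changed by 5.46 ± 1.14 (SE), Ubd by 5.39 ± 0.59, Nos2 by 4.87 ± 0.52 and Cd74 by 4.61 ± 0.95. The calls of H2-Ab1 and Cd74 were lost without library 6 (limma adjusted p = 0.0550 and 0.0517), and the cytokine mRNA mean of H2-Ab1, 5964 TPM, was 2889 TPM without library 7. Iigp1 and Tgtp1, GTPases of the immunity-related family, were not called (limma adjusted p = 0.139 and 0.0819), and in library 5 they were at 1.11 and 0.408 TPM. Many genes of either list answer to both interferons, so the counts do not tell the ligands apart. Without library 6 the counts were 23 of 44 for the type I list and 8 of 22 for the interferon gamma list (background 2.57%). Without libraries 6 and 7 they were 1 and 2 (background 0.152%).

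**Figure D5:**
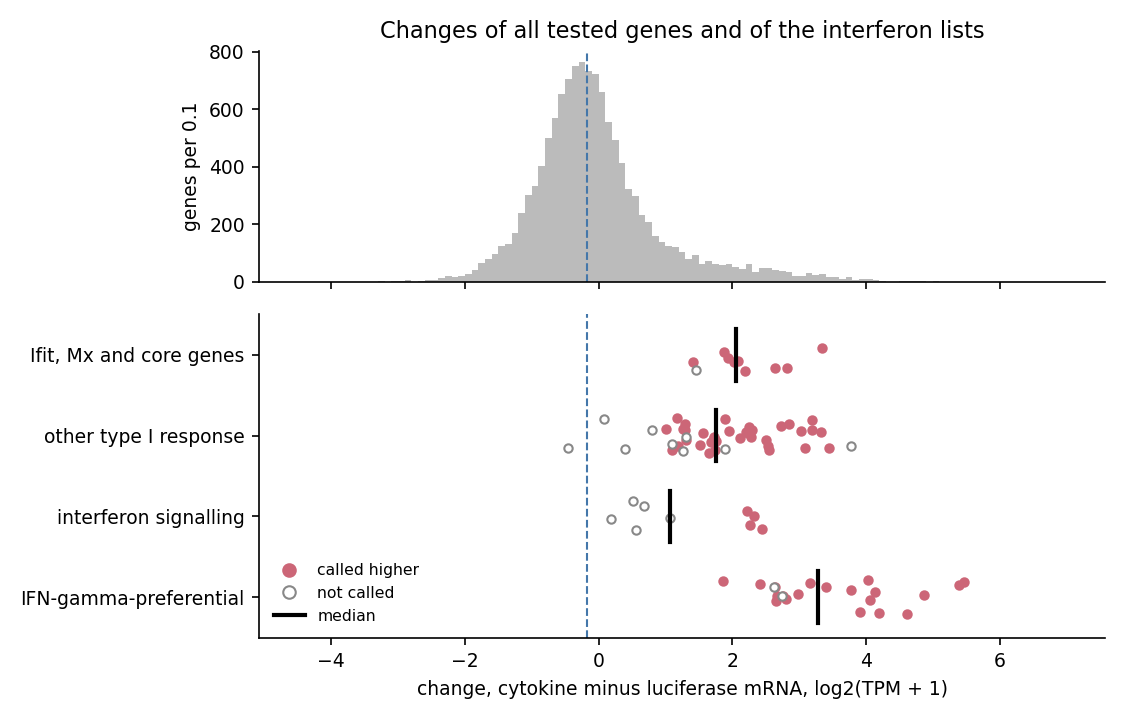
Upper panel, number of tested genes by log2 change (bins of 0.1). Lower panel, change of each tested gene of 4 lists, filled where called higher and open where not called, with a black line at the list median: 2.06 for the 10 genes, 1.75 for other type I response genes, 1.06 for interferon signalling and 3.29 for the interferon gamma list. The dashed line is the median of all tested genes.

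The genes outside the 10 whose pattern was most like their mean were ranked by Pearson r of deviations from the group means over the 10 tumours, as a description with no test. The tumours share their libraries and scaling. Among 12487 genes the highest were Pcsk6 (0.98), Oasl2 (0.97), Rtp4 (0.95), Ccl8 (0.95) and 1110034G24Rik (0.95). Oasl2 and Rtp4 are type I response genes and rose by 3.19 and 2.29 on the log2 scale. Pcsk6, a protein convertase gene, varied among tumours like the 10 genes but did not differ between groups, at 2.66 ± 1.69 and 1.96 ± 1.70 TPM (SD, n = 5; limma adjusted p = 0.685). Of the 10 genes themselves Ifit1 lay closest to their mean (0.96) and Cmpk2 (0.74) and Ifit3b (0.75) farthest from it. Each of the 10 is part of that mean, which raises its own r, so these values do not compare with those of outside genes.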

How the data were processed

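The authors deposited 1 table of TPM, holding 10 columns, 1 for each tumour, and rows named by mouse gene symbol. Per the labels' protocols, RNA was DNase-treated and stranded libraries were made with NuGEN methods from polyA RNA. STAR and the build GRCh38 are named per the submitters' processing notes. GRCh38 is a human build, while the symbols are mouse. The build is therefore open, and coordinates printed are those of the RefSeq promoter table (GRCm38.p6). The sources used here do not name the counter, annotation or filters. Depth cannot be read from TPM, so no counting intervals are given.

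A gene was tested if 5 or more libraries had a TPM of 1 or more (12497 of 22329). The test was limma (3.58.1, run in R 4.3.3) on log2(TPM + 1), with a trended prior, 2-sided, with Benjamini-Hochberg adjustment over all genes tested. Fold changes on that scale understate the change of low genes. The step was tested on simulated data. Groups come from the titles. The labels do not tie each library to a mouse, but the design states 5 per group. The 10 genes and all lists were chosen with earlier results of these data known. Named genes were all members, the upstream lists, the 4 largest called and 4 smallest uncalled changes of the response lists, the 2 most abundant genes of each marker list, and the 5 most alike. Other names were chosen after their values were seen. Acta1 and Irf8 are not analysed here. The values of 1 gene of the signalling list are not reported here. Protein identity was planned and not run, and transcript identity was computed in its place. Alternatives were other pseudocounts (0.1 and 5), filters, scalings and weights, no trend, an exact rank test, and libraries left out.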

Additional observations from a re-analysis of the deposited data

Results flagged for a closer look

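In 34 groups of 5 tumours examined for a value far from the others, 4 stood apart, and chance marks about 1 in 20 groups. Cmpk2 in library 6, at 15.1 TPM, lay below the other cytokine mRNA tumours, and it was the lone gene of the 10 with such a value. Library 7 listed 276 chemosensory receptor genes above 0. Library 5 had a summed TPM of macrophage and monocyte markers of 128, below the other controls. Library 1 had a summed TPM of melanoma markers of 2604, below the other controls.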

How the results depend on the processing

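Of 229 refits of single genes of the 10 under other settings, 207 kept their side of the threshold, 18 lost the call, 4 gained it (all in Cmpk2) and none changed direction. The genes called were 9 of the 10; the count was 8 to 9 with 1 library left out, 1 without libraries 6 and 7, and 0 by the exact rank test, which called 0 of all genes (2914 at an unadjusted p under 0.05; smallest adjusted p 0.0860). With 5 against 5, every gene without overlap shares the smallest p that the rank test can give. That p was 0.0860 after adjustment, so no gene could pass, whatever the size of its change. The 0 counts of this test, and its part of the 18 lost calls, therefore say nothing about single genes. Without libraries 7 and 10, which also leaves 8 tumours, 9 of the 10, 37 of the type I list and 21 of the interferon gamma list were called. The cause of the other lost calls was not tested. All genes called were 846 with no filter, 2769 with library quality weights, 2607 without libraries 7 and 10, 20 without libraries 6 and 7, and 367 to 3238 with 1 library left out. The other type I list gave 23 to 39 and the interferon gamma list 8 to 20 with 1 library left out, 1 and 2 without libraries 6 and 7, and 0 and 0 by the exact rank test. Pairs that passed were 22 with a pseudocount of 5, which shrinks the changes of low genes, and 0 to 8 with 1 library left out. Ifit3b was below the filter at a TPM of 5. No paired analysis was possible because the groups share no replicate numbers. Depth is unknown, which limits what can be said of genes listed at 0.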

Other observations

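Genes next to the 10 on the chromosome, listed after the values above were seen, did not share one direction. Of 24 protein-coding neighbours, 3 on each side of the loci with a RefSeq entry, 15 could be tested, 4 rose and 2 fell. Of all tested genes 7.41% were called higher and 3.02% lower, and the difference from these shares was not tested. Before the Ifit cluster, Lipa (a lysosomal lipase), Ch25h (which makes an antiviral oxysterol and is on the type I list) and Fas (a death receptor) rose, by 1.19 ± 0.33, 2.25 ± 0.58 and 2.77 ± 0.66 (SE) on the log2 scale. On its other side Kif20b, a mitotic kinesin gene, fell by 1.41. Beside Rsad2 and Cmpk2, Id2, a regulator of lymphoid and dendritic cells, rose by 1.34 ± 0.27 and Sox11, a developmental factor, fell by 1.95. When libraries were left out singly, Id2 passed in all 10 fits, Ch25h in 4, Fas and Kif20b in 3, and Lipa and Sox11 in 2. The cytokine mRNA mean of Ch25h, 25.6 TPM, was 14.2 TPM without library 7. Neighbours of Ifi44 and Xaf1 were not called.

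Inside the cluster the relative Ifit1bl1 was at 0.544 ± 0.593 TPM in control and 13.04 ± 12.8 TPM in cytokine mRNA tumours (SD, n = 5; limma adjusted p = 0.0570), with a cytokine mRNA mean of 8.36 TPM without library 7. In library 10 it was at 0.272 TPM, within the control range, while Ifit1, Ifit2, Ifit3 and Ifit3b were above every control value there. Ifi44l, the relative of Ifi44, was listed at 0 in all libraries.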
